A study of Mus musculus with 22 samples.

Results

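CD8α- DCs of the NOD pancreas were compared with those of the C57BL/6 pancreas after 18 h of culture with LPS. This comparison used the 7 arrays labelled as LPS cultures among the 22 arrays of the study, 4 of NOD (replicates 1 to 4) and 3 of C57BL/6 (replicates 2 to 4). The NOD (nonobese diabetic) mouse develops autoimmune diabetes, and C57BL/6 is the non-diabetic control strain. All mice were females of 5 weeks, an age at which the NOD mice were pre-diabetic, and each array held cells of 10 pooled pancreases, so that it gives no spread between single mice. CD45+ cells were enriched with magnetic beads, CD11c+CD8α- DCs were sorted by flow cytometry and the sorted cells received 1 µg/ml LPS in vitro. The corresponding PBS cultures (4 NOD and 4 C57BL/6 arrays) and the uncultured steady state cells (3 NOD and 4 C57BL/6 arrays) are used beside them where a difference after LPS is set against the other conditions.

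LPS is a cell wall component of Gram-negative bacteria that is sensed through CD14, MD-2 and TLR4. The adaptors MyD88 and TRIF then carry the signal to NF-κB, to the MAP kinases that feed AP-1, and to interferon regulatory factors. In DCs this induces cytokines and chemokines, raises costimulatory molecules and changes how antigen is presented on MHC class II. CD8α- DCs are known as inducers of CD4+ T cell proliferation.

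Expression is given as the log2 RMA value of a probe set, so that 1 unit is a doubling. Differences are given as NOD minus C57BL/6 with their moderated standard error (SE), and a probe set was called at an adjusted p under 0.1 in limma. A gene is represented by the brightest probe set that names it alone. The array medians lay between 7.634 and 7.684 and the lower quartiles between 6.27 and 6.36. Values below the quartiles are close to the bottom of the scale, and folds that start there are uncertain. Arrays correlated at 0.985 to 0.991 within a strain and at 0.973 to 0.983 between the strains. The 14 measured markers of CD8α- DCs averaged 9.62 to 9.75 in NOD and from 9.75 to 9.92 in C57BL/6 LPS cultures, against 11.19 to 11.32 in steady state cells of either strain. The defining Itgax, which encodes CD11c, lay between 8.11 and 8.55 in NOD and between 8.36 and 8.53 in C57BL/6.

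NOD replicate 1 stood apart from the other NOD arrays in a B cell and a cell cycle signal. The mean over 9 B cell markers was 9.64 there and 8.34 to 8.77 on the other NOD arrays, against 9.07 to 9.73 in C57BL/6. The mean over 28 S phase genes was 9.41 on NOD replicate 1 and 8.61 to 8.74 on the other NOD arrays, against 9.02 to 9.28 in C57BL/6. Results that rest on this array are given with and without it.

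Of 18193 genes, 1935 differed between the strains after LPS (10.6%). NOD was higher for 948 (5.21%) and lower for 987 (5.43%), and the median difference over all genes was 0.01. At least 2-fold differences were found for 199 of the higher and 231 of the lower genes, and 66 genes differed at least 4-fold. The arrays of the strains did not overlap for 918 of the higher and 934 of the lower genes, so a lack of overlap adds little to a call. Counts of called members in the gene lists below stand beside the shares over all genes. Over 45037 probe sets, 4463 were called (9.91%). Without C57BL/6 replicate 3 the same test called 2837 probe sets, with 592 genes higher and 638 lower in NOD. Among the 1055 called genes with further probe sets, another probe set was called the same way in 592 and the opposite way in 14, with a few genes in both counts, and none was called in 452. The probes follow reference mouse transcripts, and how well NOD transcripts bind them was not tested.

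The largest rise was that of Zfp979, a zinc finger gene, with values of 10.67, 10.66, 10.42 and 10.56 in NOD and of 4.43, 4.33 and 4.43 in C57BL/6. Each C57BL/6 value lay below the lower quartile of its array, and each NOD value was well above the median. The difference was 6.18 (SE 0.12, adjusted p = 3.41e-09 in limma). Ifi202b, a p200 family gene of the interferon response, reached 13.77, 13.73, 13.61 and 13.65 in NOD, against 8.85, 8.99 and 9.12 in C57BL/6. It differed by 4.71 (SE 0.12, adjusted p = 2.19e-08 in limma). Both genes were also higher in NOD in PBS culture, by 6.67 and 4.66, and at steady state, by 5.74 and 3.81. Melk, a mitotic kinase gene, was higher by 4.35, the collagen gene Col23a1 by 4.11, BC018473 by 3.79 and Smim13 by 3.70. Other probe sets of Col23a1 (1.21 and 2.97) and BC018473 (1.36) were called higher too but differed by less, so the sizes of these rises are uncertain. F3, which encodes tissue factor, the starter of the coagulation cascade, had values of 11.59, 11.29, 11.74 and 11.16 in NOD and of 8.32, 7.55 and 8.18 in C57BL/6. Its difference was 3.43 (SE 0.20, adjusted p = 1.04e-05 in limma) after LPS and 1.97 (adjusted p = 0.0222) after PBS, while it was not called at steady state (−0.11, adjusted p = 0.738). The other genes of the 15 largest rises were Unc13b, Mmp3, Gbp2b, 2500002B13Rik, Plpp3, Postn, Irak1bp1 and Hal, with differences between 2.79 and 3.25. Of these 15, 14 were also called higher in PBS culture and 9 at steady state. For Unc13b, a synaptic vesicle priming gene, the other probe set was not called (0.58, adjusted p = 0.174). The other Irak1bp1 probe set was called but differed by 0.64 (adjusted p = 0.0111), against 2.89 on its brightest.

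Among the falls, Cd200r4, an activating member of the CD200 receptor family, had the largest difference. It measured 3.87, 3.48, 3.34 and 3.51 in NOD, against 10.07, 9.36 and 9.85 in C57BL/6, a difference of −6.21 (SE 0.18, adjusted p = 7.92e-08 in limma). All 4 NOD values were below the lower quartiles, as were the NOD means of 3 further genes of the 15 largest falls. Pcp4, a calmodulin-binding peptide gene, stood at 7.10, 7.01, 6.90 and 6.87 in NOD and at 12.43, 11.58 and 12.47 in C57BL/6 (−5.19, SE 0.20, adjusted p = 5.04e-07). It differed as much after PBS (−5.38) but not detectably at steady state (0.09, adjusted p = 0.797). The LIM homeobox gene Lhx2 likewise differed by −3.10 after LPS and −3.12 after PBS, but not detectably at steady state (0.26, adjusted p = 0.216). Rnf225, lower by −4.37 after LPS and −4.47 after PBS, was called in the other direction at steady state (0.28, adjusted p = 0.0989). Pomk, a kinase gene of dystroglycan glycosylation, and Hgsnat, a lysosomal acetyltransferase gene of heparan sulphate breakdown, are neighbours with no protein-coding gene between them, and fell by 3.83 and 3.62 on the log2 scale. Cep85, a centrosome gene, was lower by −4.44 on its brightest probe set, but its other probe set differed by −0.44 only (adjusted p = 0.0914). The transporter gene Slc13a3 was lower by −4.17, and 1 of its 3 other probe sets was called. An immunoglobulin kappa variable gene among these falls was at 8.02, 6.79, 8.09 and 6.98 in NOD and at 13.32, 13.04 and 9.24 in C57BL/6, so that its difference of −4.39 became −5.71 without C57BL/6 replicate 4. Of these 15 falls, 14 were also called lower in PBS culture and 11 at steady state.

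**Figure D1:**
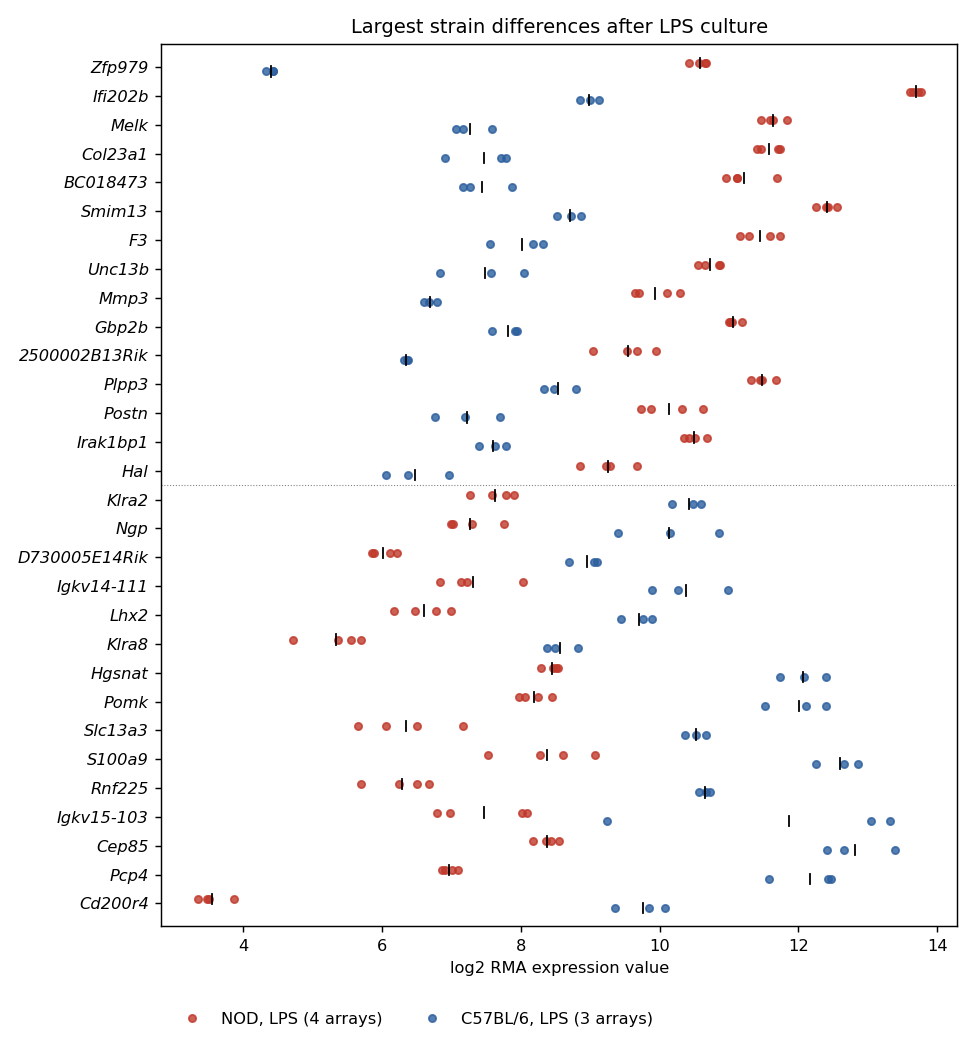
Log2 expression of the 15 genes with the largest rise (upper block) and the 15 with the largest fall (lower block) in NOD after LPS culture. Each point is an array (red, 4 NOD; blue, 3 C57BL/6), each bar a group mean; the genes were taken among those without overlap between the strains, from a rise of 6.18 for Zfp979 to a fall of 6.21 for Cd200r4.

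To find out which strain differences were different in the presence of LPS, the strain difference after LPS was set against that after PBS in a fit over the 15 cultured arrays. After PBS, 1947 genes were called (10.7%). Of the 948 genes higher after LPS, 587 were called higher after PBS too (61.9% of these and 59.5% of the genes higher after PBS). Of the 987 lower genes, 614 were called lower after PBS (62.2%, and 64% of the genes lower after PBS). The LPS and PBS comparisons share no array, but arrays with the same replicate number deviated together, so they are not fully independent. The difference between the strain differences (the strain by LPS interaction) passed the test for 11 probe sets (0.0244%), and 1759 had an unadjusted p under 0.05. With an array left out, 5 (without the C57BL/6 LPS replicate 3) to 14 probe sets passed; 6 or 7 did so without C57BL/6 PBS replicate 1, 3 or 4, NOD PBS replicate 4, C57BL/6 LPS replicate 2 or 4 or NOD LPS replicate 4. With all arrays, 18 passed under the replicate block, 20 with the spread taken from all 22 arrays and 6 without the dimmer 50% of probe sets. Among genes, it passed for 4 (0.022%): Mmp3, Gbp2b, Fcgr2b and Map2. The test therefore leaves most of the 1935 differences with no detectable dependence on LPS, which does not show that they were equal.

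**Figure D2:**
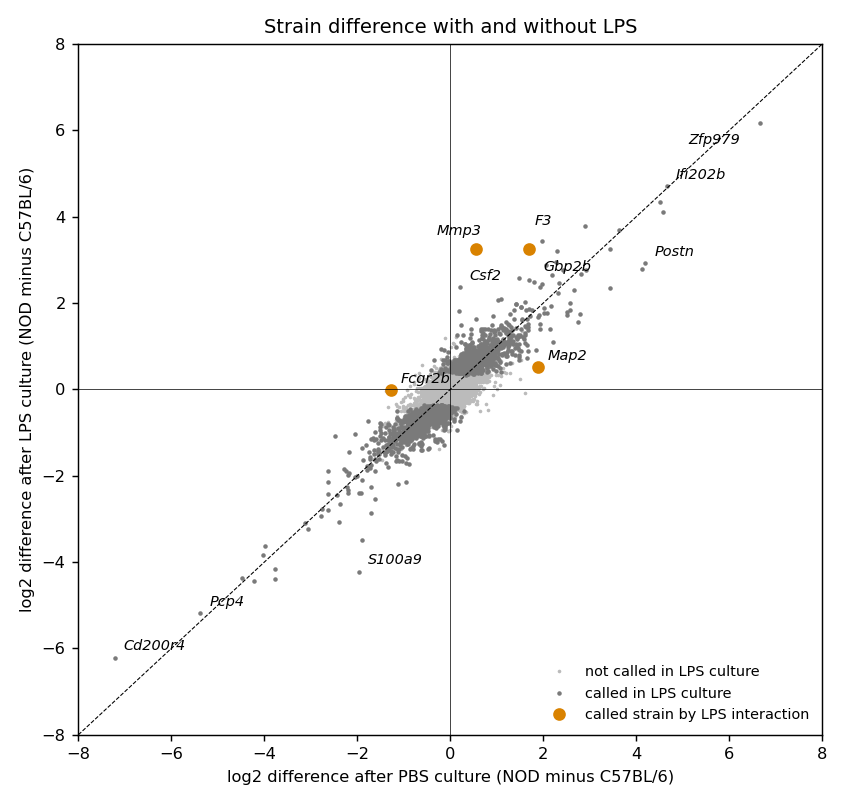
Log2 strain difference of 18193 genes after LPS culture (vertical axis) against that after PBS culture (horizontal axis), NOD minus C57BL/6. The dashed line marks equal differences; Mmp3 and Gbp2b lie above it and Map2 below it among the 4 genes with a called interaction (orange), and Csf2 lies at 2.36 after LPS and 0.21 after PBS.

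Mmp3 encodes stromelysin-1, a secreted metalloproteinase that degrades matrix proteins. After LPS it measured 9.70, 9.65, 10.29 and 10.11 in NOD, against 6.79, 6.68 and 6.60 in C57BL/6. After PBS it measured 6.94, 6.40, 7.95 and 7.04 in NOD, against 6.64, 6.64, 6.55 and 6.31 in C57BL/6. The NOD LPS arrays were thus above all 11 other cultured arrays, which overlapped one another. The strain difference was 3.25 (SE 0.17, adjusted p = 3.63e-06 in limma) after LPS and 0.55 (adjusted p = 0.285) after PBS, and the interaction was 2.70 (SE 0.35, adjusted p = 0.0104). LPS against PBS gave 2.86 (adjusted p = 0.0008) in NOD and 0.15 (adjusted p = 0.751) in C57BL/6.

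Gbp2b encodes an interferon-inducible guanylate-binding protein. Its values after LPS were 11.04, 11.18, 11 and 11.01 in NOD, against 7.94, 7.59 and 7.92 in C57BL/6, and after PBS 11.34, 11.15, 11.22 and 10.85 in NOD, against 9.71, 9.12, 9.64 and 9.28 in C57BL/6. Here the NOD cultures hardly differed from each other, and the C57BL/6 cultures were lower with LPS than with PBS. LPS against PBS gave −0.08 (adjusted p = 0.898 in limma) in NOD and −1.62 (SE 0.17, adjusted p = 0.0158) in C57BL/6. The interaction of 1.54 (SE 0.21, adjusted p = 0.0149) lost its call once replicate numbers were blocked (replicate block: 1.45, adjusted p = 0.117).

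The 150 bases before the transcription start of these 2 genes were read from RefSeq on GRCm38.p6, which is C57BL/6J sequence, and are shown because, on the brightest probe set of each gene, these had the largest called interactions with a higher strain difference after LPS. The NOD sequence was not used here. A match to the AP-1 motif TGANTCA in the Mmp3 promoter (chr9:7445672-7445821, plus strand) and a match, on the other strand, to an interferon response motif (GAAA, any 2 bases and GAAA) in the Gbp2b promoter (chr3:142594697-142594846, plus strand) are in capitals.
Mmp3: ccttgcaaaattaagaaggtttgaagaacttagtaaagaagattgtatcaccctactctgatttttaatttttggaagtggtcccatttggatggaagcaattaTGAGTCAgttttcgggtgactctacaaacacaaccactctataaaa
Gbp2b: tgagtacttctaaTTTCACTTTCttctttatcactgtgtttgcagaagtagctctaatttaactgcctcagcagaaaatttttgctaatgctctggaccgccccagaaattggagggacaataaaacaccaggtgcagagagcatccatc
The AP-1 match begins 46 bases before the start and the interferon response match 137 bases before it. On either strand, TGANTCA occurs in 4.24% and the interferon response motif in 1.59% of 32851 promoters of the same length, so a match alone is a description and no binding site.

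Fcgr2b encodes the inhibitory receptor for immunoglobulin G. It did not differ detectably between the strains after LPS, at 13.10, 12.68, 13.15 and 13.08 in NOD and at 12.95, 13.03 and 13.05 in C57BL/6 (−0.01, SE 0.14, adjusted p = 0.983 in limma). After PBS it was lower in NOD, at 11.32, 11.09, 11.67 and 11 against 12.49, 12.41, 12.66 and 12.59 in C57BL/6 (−1.27, adjusted p = 0.000364). The interaction was 1.26 (SE 0.21, adjusted p = 0.0657) and was called for 4 of its 5 probe sets, but on this probe set the call was lost in 13 of 15 fits that left out an array, with an adjusted p of up to 0.246, and with arrays weighted by quality (adjusted p = 0.14). Map2, which encodes a microtubule-associated protein, ran the other way, with strain differences of 0.52 (adjusted p = 0.0205) after LPS and 1.89 (adjusted p = 4.36e-05) after PBS. Its arrays measured 7.64, 7.76, 7.78 and 7.85 in NOD, against 7.28, 7.28 and 7.14 in C57BL/6 after LPS, and 8.72, 8.98, 9.02 and 9.28 in NOD, against 7.38, 7.36, 6.89 and 6.81 in C57BL/6 after PBS. Its interaction of −1.37 (SE 0.21, adjusted p = 0.0442) was lost in 6 of 15 such fits, with an adjusted p of up to 0.205. In these, C57BL/6 LPS replicate 2, 3 or 4, NOD LPS replicate 2, C57BL/6 PBS replicate 3 or NOD PBS replicate 4 was left out. On 2 dimmer Map2 probe sets the interaction was called too (−2.55, adjusted p = 0.0104, and −1.85, adjusted p = 0.0458). There the means of all groups but NOD PBS lay below the lower quartiles, so these sizes are uncertain. A dimmer probe set of Epha4, an ephrin receptor gene looked up after its values were seen, had strain differences of 1.82 after LPS and 0.17 after PBS (interaction 1.65, adjusted p = 0.0104), whereas the brightest Epha4 probe set differed by 1.06 and 0.31 (interaction adjusted p = 1).

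**Figure D3:**
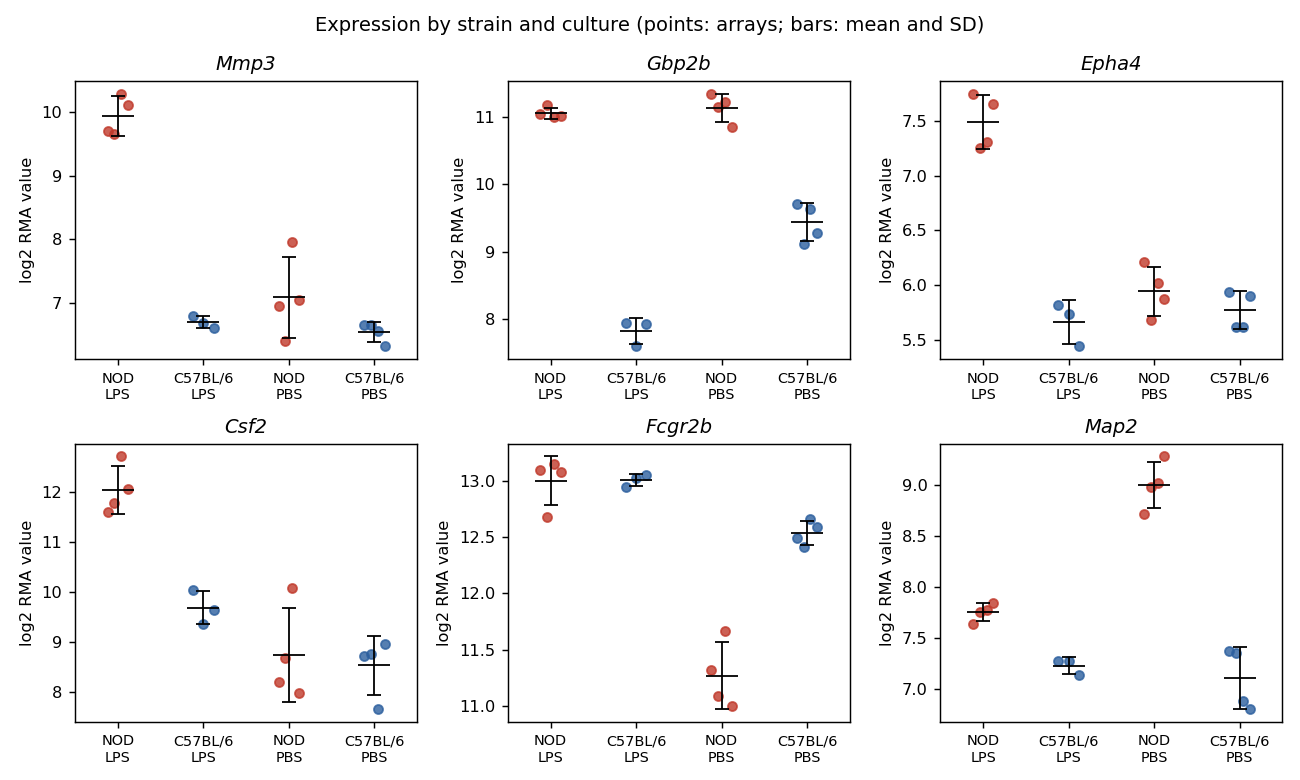
Log2 expression of 6 genes in the 4 cultured groups (points, arrays; bars, mean and SD of 4 NOD LPS, 3 C57BL/6 LPS, 4 NOD PBS and 4 C57BL/6 PBS arrays). For Mmp3 and the dimmer Epha4 probe set the NOD LPS arrays stand above the other groups, Fcgr2b and Map2 differ more between the strains in PBS culture, and the Csf2 interaction did not pass the test.

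Of 25 measured inflammatory cytokines, 11 were higher and 2 lower in NOD after LPS, with a median difference of 0.39. This was 52% called, against 10.6% over all genes. With each array left out in turn, 8 to 11 were higher and 2 lower. After PBS 8 members were higher and 2 lower already (median 0.21), and none had a called interaction. Csf2, which encodes the myeloid growth factor GM-CSF, measured 11.60, 11.78, 12.71 and 12.06 in NOD, against 10.03, 9.37 and 9.65 in C57BL/6. No NOD array overlapped with C57BL/6, and the difference of 2.36 (SE 0.25, adjusted p = 0.000452 in limma) is 5.12-fold. After PBS the strains did not differ detectably (0.21, adjusted p = 0.843), and LPS against PBS gave 3.29 (adjusted p = 0.00223) in NOD and 1.15 (adjusted p = 0.147) in C57BL/6. The interaction of 2.14 (SE 0.57, unadjusted p = 0.00159) did not pass the adjustment over all probe sets (adjusted p = 0.818). Il1f6, now named Il36a, a member of the IL-1 family that signals through the IL-36 receptor, measured 10.77, 10.76, 11.21 and 10.34 in NOD, against 8.38, 8.08 and 8.11 in C57BL/6 (2.58, SE 0.19, adjusted p = 3.73e-05). Its difference after PBS was 1.48 (adjusted p = 0.0391). Csf3, the gene of the neutrophil growth factor G-CSF, was at 12.92, 12.68, 13.19 and 13 in NOD and at 11.57, 10.53 and 11.57 in C57BL/6 (1.72, SE 0.24, adjusted p = 0.00231). In contrast to Csf2, Csf3 differed in PBS culture as well (2.51, adjusted p = 0.00146).

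Il6, a pleiotropic cytokine of the acute phase, was at 12.91, 13.01, 13.29 and 12.99 in NOD and at 12.13, 11.63 and 11.87 in C57BL/6 after LPS (1.17, SE 0.15, adjusted p = 0.00128 in limma). Tnf was at 12.70, 12.73, 12.95 and 12.62 in NOD and at 12.07, 11.64 and 11.92 in C57BL/6 (0.88, SE 0.14, adjusted p = 0.00464). Neither gene overlapped between the strains, and their interactions were 0.34 (adjusted p = 1) and 0.07 (adjusted p = 1), so a different LPS response was not detectable. Il1b, a fever-inducing cytokine, was at 13.48, 13.55, 13.66 and 13.66 in NOD and at 13.17, 13.28 and 13.15 in C57BL/6. Its call was weak (0.39, SE 0.11, adjusted p = 0.0728) and was lost when any array but NOD replicate 1 was left out (adjusted p of up to 0.176). Osm, oncostatin M of the IL-6 family, named after its values were seen, was higher by 1.07 (adjusted p = 0.00172). Il10, the anti-inflammatory cytokine, gave 10.89, 10.78, 11.16 and 10.67 in NOD, against 10.89, 11.29 and 10.69 in C57BL/6, with overlapping strains (−0.08, SE 0.17, adjusted p = 0.873). The IL-12 subunit genes were not called either, with 0.05 for Il12a (adjusted p = 0.931) and −0.26 for Il12b (adjusted p = 0.556). The 2 lower members were interferons. Ifng gave 7.64, 8.36, 8.38 and 7.09 in NOD, against 10.15, 8.86 and 9.93 in C57BL/6 (−1.78, SE 0.36, adjusted p = 0.016), and Ifnb1 gave 9.10, 8.91, 8.57 and 8.77 in NOD, against 9.46, 9.73 and 9.63 in C57BL/6 (−0.76, SE 0.15, adjusted p = 0.0113).

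Among the genes that sense LPS, the receptor gene Tlr4 was at 10.78, 10.67, 10.54 and 11.03 in NOD and at 10.86, 11.01 and 11.04 in C57BL/6 and was not called (−0.21, SE 0.14, adjusted p = 0.48 in limma). Its coreceptor gene Cd14 was at 14.29, 14.28, 14.33 and 14.40 in NOD and at 13.05, 13.40 and 13.42 in C57BL/6 (1.03, SE 0.13, adjusted p = 0.00103), and differed by 1.66 after PBS. Of 25 TLR and LPS receptor genes 6 were higher and 2 lower (32% called, median 0.18). After PBS 8 were higher and 2 lower (median 0.02). Called after LPS were Tlr2, the sensor of bacterial lipoproteins (0.80, adjusted p = 0.00766), and Tlr9, the sensor of CpG DNA (−0.94, adjusted p = 0.00579), among others. Without C57BL/6 replicate 2 or 3 or NOD replicate 3 or 4, 2 or 3 members were higher, and with any array but C57BL/6 replicate 2 or NOD replicate 1 left out, 1 was lower. Trem1, an amplifying receptor of myeloid cells, was at 8.65, 9.28, 9.50 and 9.60 in NOD and at 7.75, 7.43 and 7.34 in C57BL/6 (1.75, SE 0.22, adjusted p = 0.00114), whereas Trem2 was not called (−0.04, adjusted p = 0.957). Stat5a, a transducer of GM-CSF signals, was not called (0.04, adjusted p = 0.937), nor was any of 8 measured IRF genes. With 10.6% called over all genes, no call among so few members is not a result about the IRF list. Among 26 immediate early genes and MAP kinase phosphatases, 9 were higher and 3 lower after LPS (46.2% called, median 0.30). After PBS 11 were higher and 2 lower (median 0.44). After LPS, Dusp4 (1.25) and Dusp16 (0.98), which dephosphorylate MAP kinases, were higher, and Nr4a2 (−1.03) and Myc (−0.92) were lower. Other Nr4a2 probe sets were called lower as well, but those at −0.16 (adjusted p = 0.684) and −0.00 (adjusted p = 0.994) were not called.

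Chemokines moved in both directions, 4 higher and 4 lower of 30 (26.7% called, median 0.13). Cxcl9, which recruits CXCR3+ T cells and is induced by interferon-γ, measured 11.44, 12.35, 11.58 and 11.62 in NOD, against 13.43, 12.85 and 13.81 in C57BL/6 (−1.62, SE 0.26, adjusted p = 0.00452 in limma). Cxcl14 was higher by 1.52 (adjusted p = 0.00118) and the eosinophil attractant Ccl24 by 0.99 (adjusted p = 0.00973). The neutrophil attractant Cxcl1, named after its values were seen, was higher by 0.90 (adjusted p = 0.000953) and by 1.68 after PBS. Ccr2, the receptor for CCL2, was at 7.16, 8.33, 7.51 and 7.97 in NOD and at 9.05, 9.20 and 9.56 in C57BL/6. It was lower (−1.53, SE 0.25, adjusted p = 0.00561), as it was on each of its 3 other probe sets. Of 31 antiviral interferon-stimulated genes 3 were called, all higher, among them Mx2 (0.62, adjusted p = 0.00862). This share of 9.68% was close to the 10.6% called over all genes, and with an array left out the count fell to 1 or 2.

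**Figure D4:**
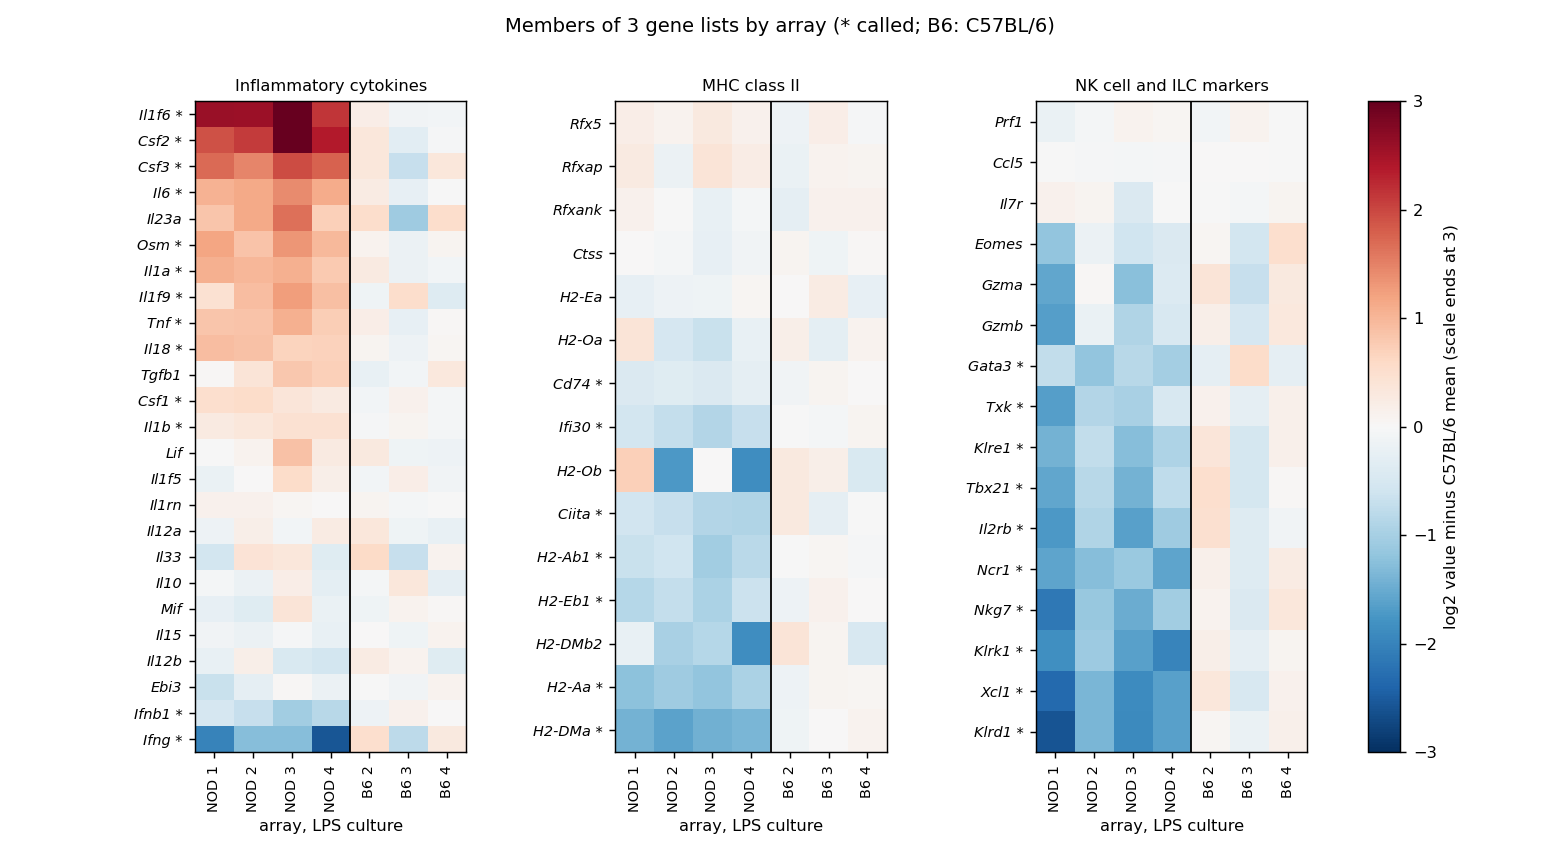
Log2 value minus the C57BL/6 mean of each member of 3 gene lists on the 7 LPS arrays (colour scale ends at 3; NOD arrays left of C57BL/6 arrays). Asterisks mark called genes, of which the cytokine list had 11 higher and 2 lower in NOD, the MHC class II list 7 lower and the NK cell and ILC list 10 lower.

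MHC class II genes were lower in NOD, with 7 of 15 measured members called, none higher and a median difference of −0.71. With each array left out in turn, 6 or 7 were called. B cells also express these genes, and on NOD replicate 1, the array with the high B cell markers (9.64, against 8.34 to 8.77 on the other NOD arrays), the class II mean was 10.78, against 10.46 to 10.53 on the other NOD arrays and 11.04 to 11.12 in C57BL/6. The B cell markers had a median difference of −0.64, and their part in the class II difference was not tested. Without NOD replicate 1, 7 members were called, with −1.07 for H2-Aa and −1.47 for H2-DMa. H2-DMa, a chain of the peptide loading catalyst, was at 9.23, 9.05, 9.21 and 9.28 in NOD and at 10.52, 10.67 and 10.77 in C57BL/6 (−1.46, SE 0.12, adjusted p = 7.57e-05 in limma). H2-Aa, the I-A α chain gene, was at 12.47, 12.64, 12.51 and 12.74 in NOD and at 13.54, 13.79 and 13.77 in C57BL/6 (−1.11, SE 0.12, adjusted p = 0.000588). Both genes were separated between the strains by more than the whole range of either group. H2-Ab1 (−0.78, adjusted p = 0.00589) and H2-Eb1 (−0.79, adjusted p = 0.00499) were lower too, although 1 of the 2 other H2-Ab1 probe sets was not called (−0.13, adjusted p = 0.757). NOD mice carry their own class II haplotype, and probe binding to its transcripts was not tested. After PBS 9 members were lower (median −0.66), and none had a called interaction. The 150 bases before H2-Aa (chr17:34287824-34287973, minus strand) and H2-Eb1 (chr17:34305717-34305866, plus strand) are shown because these genes were lower together. Class II promoters are known for a Y box, an inverted CCAAT element (GATTGG). Matches to these letters on either strand are in capitals below, and CCAATC in H2-Eb1 is an upright CCAAT, not an inverted one.
H2-Aa: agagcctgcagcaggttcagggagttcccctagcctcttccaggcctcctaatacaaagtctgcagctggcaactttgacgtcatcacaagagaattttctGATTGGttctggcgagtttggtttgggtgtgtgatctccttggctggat
H2-Eb1: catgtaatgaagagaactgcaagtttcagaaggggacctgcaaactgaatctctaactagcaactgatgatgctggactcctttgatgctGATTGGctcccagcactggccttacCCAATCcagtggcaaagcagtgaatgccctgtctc
GATTGG begins 49 bases before the start of H2-Aa, and matches on either strand begin 60 and 35 bases before that of H2-Eb1. This motif occurs in 10.9% of the 32851 promoters.

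Costimulatory genes did not move as a group. Cd40 (0.12, adjusted p = 0.641 in limma), Cd80 (−0.06, adjusted p = 0.916) and Cd86 (0.13, adjusted p = 0.651), looked up after the list counts were seen, were not called, although 1 of the 2 other Cd40 probe sets was higher. Of 19 costimulators and coinhibitors 3 were higher and 6 lower (median 0.09). Icosl, the ligand of the T cell costimulator ICOS (0.65, adjusted p = 0.0137), and Tnfsf9, the ligand of 4-1BB (0.75, adjusted p = 0.0116), were higher. Cd48, a SLAM family receptor (−1.10, adjusted p = 0.00125), its ligand gene Cd244a (−1.10, adjusted p = 0.0145) and the inhibitory receptor gene Btla (−1.34, adjusted p = 0.0141) were lower. Icosl (0.30) was not called on the mean over its probe sets (adjusted p = 0.141), and the other Cd244a probe set was not called (−0.29).

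Of 16 marker genes for NK cells and for innate lymphoid cells (ILCs), 10 were lower in NOD and none was higher, with a median of −1.04. The array means over the 16 genes were 8.86 to 9.54 in NOD, against 9.95 to 10.40 in C57BL/6. Klrd1, the CD94 gene, was at 7.66, 8.88, 8.35 and 8.63 in NOD and at 10.32, 10.05 and 10.40 in C57BL/6 (−1.88, SE 0.25, adjusted p = 0.00163 in limma). Xcl1, a chemokine gene of activated lymphocytes, was at 9.36, 10.32, 9.79 and 10.05 in NOD and at 12.03, 11.21 and 11.81 in C57BL/6 (−1.81, SE 0.25, adjusted p = 0.00184). Klrk1, which encodes NKG2D, differed by −1.64 and Nkg7 by −1.45. The Ly49 receptor genes Klra8 (−3.23) and Klra2 (−2.79), which the marker list does not hold, were among the 15 largest falls. Probe binding to their NOD transcripts was not tested. Ifng, Cd244a and the IL-2 receptor β chain gene Il2rb (−1.33, adjusted p = 0.0103) were lower on the same arrays, and the part of the marker difference in their values was not tested. In a sorted population, fewer cells of a type and less RNA per cell cannot be told apart. The list was lower after PBS too (10 members called, median −0.88).

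Of 8 neutrophil markers 5 were lower and 1 higher (median −0.94), and the list averaged 8.62 to 8.95 in NOD, against 9.82 to 10.22 in C57BL/6. S100a9, a calprotectin subunit gene, was at 7.53, 8.60, 8.28 and 9.07 in NOD and at 12.66, 12.86 and 12.26 in C57BL/6 (−4.22, SE 0.30, adjusted p = 3.56e-05 in limma). The gene of its partner subunit, S100a8, went the other way, at 14.07, 13.96, 14.63 and 14.36 in NOD against 13.36, 13.56 and 13.22 in C57BL/6 (0.87, SE 0.17, adjusted p = 0.0134). S100a8 was named after its values were seen. After PBS neither was called, with −1.97 (adjusted p = 0.123) for S100a9 and 0.63 (adjusted p = 0.277) for S100a8, but 4 of the 8 neutrophil markers were lower then as well (median −0.84) and none was higher. The granule protein genes Ngp (−2.87), Camp (−1.54) and Mmp8 (−1.19) were lower. Chil3, the Ym1 gene of alternatively activated myeloid cells, was lower (−2.14, adjusted p = 0.023), and by −2.87 without C57BL/6 replicate 4.

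Macrophage markers were mixed, with 3 of 23 higher and 5 lower (34.8% called). Mrc1, the mannose receptor gene, was higher by 1.05 (adjusted p = 0.0115 in limma), and Timd4, a phosphatidylserine receptor gene, was lower (−1.03, adjusted p = 0.00126). Lower members of the CD8α- DC list were Flt3, the receptor for the DC growth factor FLT3 ligand (−0.87, adjusted p = 0.00721), Zbtb46, a transcription factor gene of conventional DCs (−0.65, adjusted p = 0.00964), and H2-Ab1. Further DC surface genes looked up after the values were seen, Sirpa (0.06, adjusted p = 0.888) and Itgam (−0.16, adjusted p = 0.644), were not called, nor was Itgax (−0.11, adjusted p = 0.752). None of 11 acinar cell genes was called, while their array means ranged from 9.09 to 11.24 in NOD and from 8.73 to 11.19 in C57BL/6.

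Several gene groups of tissue remodelling and lipid mediators held more members called higher than called lower, while their medians were only 0.03 to 0.08. Of 17 matrix metalloproteinases and inhibitors 6 were higher and 3 lower (median 0.03), and 3 were higher without C57BL/6 replicate 4. Besides Mmp3, the aggrecanase gene Adamts4 was higher by 1.39 (adjusted p = 0.0226 in limma), although its other probe set was not (0.18, adjusted p = 0.721). Mmp12, the macrophage elastase gene, was at 12.13, 11.46, 11.97 and 11.95 in NOD and at 9.82, 11.43 and 10.46 in C57BL/6 (1.31, adjusted p = 0.0364), and was not called without C57BL/6 replicate 4 (1.25, adjusted p = 0.105). Of 20 prostaglandin and leukotriene genes 6 were higher and 2 lower (median 0.08), but none was lower without C57BL/6 replicate 3 or 4 or NOD replicate 2 or 3, and 1 without NOD replicate 1 or 4. Hpgds, the haematopoietic prostaglandin D synthase gene, was higher by 1.33 (SE 0.18, adjusted p = 0.00192). Ptgs2, the COX-2 gene, was at 13.80, 13.86, 13.94 and 13.81 in NOD and at 13.47, 13.28 and 13.46 in C57BL/6 (0.45, adjusted p = 0.0396). This call was lost without C57BL/6 replicate 3 (0.39, adjusted p = 0.15) and with the spread taken over all 22 arrays (adjusted p = 0.499). The other Ptgs2 probe set was not called (0.49, adjusted p = 0.129). Of 26 growth factor genes 6 were higher and none was lower (23.1% called, median 0.08). Among them were Inhba, the activin A subunit gene (1.41, adjusted p = 0.00306), the EGF family gene Hbegf (1.23, adjusted p = 0.0312) and Tgfb2 (1.12, adjusted p = 0.00407). The second Inhba probe set was not called (0.49, adjusted p = 0.153).

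Enzymes and transporters of arginine and tryptophan metabolism diverged, with 5 of 14 higher and 3 lower in a list that also holds the itaconate gene. Without C57BL/6 replicate 3 or NOD replicate 2, 3 were higher. Arg2, mitochondrial arginase, was at 12.07, 11.46, 11.70 and 11.49 in NOD and at 9.91, 10.10 and 10.38 in C57BL/6 (1.55, SE 0.17, adjusted p = 0.000635 in limma). The cationic amino acid transporter gene Slc7a2 was higher by 1.22 (adjusted p = 0.000249), while it was lower in NOD at steady state (−2.96, adjusted p = 5.02e-08). Arg1, cytosolic arginase, differed by −0.88 (adjusted p = 0.0334) and the tryptophan-degrading Ido2 by −0.95 (adjusted p = 0.00315). Acod1, the itaconate enzyme gene, named after its values were seen, was not called (0.10, adjusted p = 0.699). All 4 called antioxidant and iron genes of 22 were higher, led by the metallothionein genes Mt2 (1.22, adjusted p = 0.000722) and Mt1 (0.89, adjusted p = 0.00164). Of 23 genes of the unfolded protein and heat shock responses 5 were higher and 2 lower, with Asns, asparagine synthetase (1.43, adjusted p = 0.000623), and the chaperone gene Hspa1b (1.08, adjusted p = 0.0037) higher and the ER stress sensor gene Atf6 lower (−1.08, adjusted p = 0.00211). Both other Atf6 probe sets were not called (−0.39 and −0.34), and 3 members of the list were higher without C57BL/6 replicate 2 or 3 or NOD replicate 2 or 4.

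Adhesion genes were also divided, with 5 of 29 higher and 6 lower (37.9% called, median −0.01). Without any array other than NOD replicate 3, 2 or 3 were higher. Thbs1, the gene of the matrix protein thrombospondin-1, was at 10.59, 10.76, 10.94 and 11.13 in NOD and at 12.06, 12.27 and 12.40 in C57BL/6 (−1.39, SE 0.15, adjusted p = 0.000534 in limma). Itga4, the α4 integrin gene of homing leukocytes, was lower (−1.25, adjusted p = 0.00225) on all of its 5 probe sets. Of 21 C-type lectin genes 4 were higher and 4 lower (38.1% called), and 2 were higher without any array other than NOD replicate 1. Clec4a2, the gene of the inhibitory receptor DCIR, was at 7.82, 7.85, 7.66 and 8.13 in NOD and at 8.85, 10.23 and 9.72 in C57BL/6 (−1.73, SE 0.27, adjusted p = 0.00398), and Clec7a, the β-glucan receptor dectin-1, differed by −0.90 (adjusted p = 0.0102). Of the p200 family, Ifi213 (−1.32, adjusted p = 0.000354) was lower where Ifi202b was higher. The other Ifi213 probe set differed by more (−3.94, adjusted p = 4.01e-07), so the size of this fall is uncertain.

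The loci that carry diabetes risk in NOD hold many candidate genes, of which a list of 30 measured ones had 13 lower and 3 higher members (median −0.26). Without C57BL/6 replicate 3, 8 were lower and 1 higher. Ptpn22, a phosphatase gene of lymphocyte signalling, was at 8.69, 8.52, 8.49 and 8.41 in NOD and at 9.35, 9.56 and 9.57 in C57BL/6 (−0.97, SE 0.12, adjusted p = 0.00113 in limma). Vav3, a guanine nucleotide exchange factor gene, was lower (−1.07, adjusted p = 0.000814), although its 2 other probe sets were not called (−0.32 and −0.26). Tnfrsf9, the 4-1BB gene, was lower (−1.09, adjusted p = 0.00407). Il21 was lower (−1.28, adjusted p = 0.000715), but its NOD values of 5.10, 5.15, 4.99 and 5.27 were below the lower quartiles and its other probe set was not called (0.06, adjusted p = 0.908). Among 24 neuron-associated genes 4 were higher and 1 lower (none without C57BL/6 replicate 3 or 4), with the higher ones led by the cell adhesion gene Nrcam (2.35, adjusted p = 0.000133) and the calcium channel gene Cacna1a (1.79, adjusted p = 0.000104). After PBS these differed by 3.44 and 2.52 and at steady state by 5.37 and 2.63.

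The counts of lower proliferation genes changed with NOD replicate 1, whereas Mki67 and Tpx2 were called higher with and without it. Mki67, the Ki-67 gene, was at 12.66, 12.01, 12.05 and 12.12 in NOD and at 11.72, 11.39 and 11.17 in C57BL/6 (0.78, SE 0.19, adjusted p = 0.0343 in limma). Without NOD replicate 1 it differed by 0.63 (adjusted p = 0.0457). It was lower in NOD at steady state (−1.27, adjusted p = 1.27e-05), and its call after LPS was lost without C57BL/6 replicate 3 (0.76, adjusted p = 0.101) or 4 (0.65, adjusted p = 0.117). Of 28 S phase genes 1 was lower (3.57%), namely Ccne1, cyclin E1 (−0.74, adjusted p = 0.0226). Of 25 mitosis genes 2 were higher and 1 lower (12% called). Over all genes 10.6% were called, and the medians of the S phase and mitosis lists were −0.26 and −0.35. Without NOD replicate 1, 10 S phase and 8 mitosis genes were lower, and 5 instead of 2 of 9 B cell markers. Without C57BL/6 replicate 4, 2 S phase and 3 mitosis genes were lower, and without any other array 1 S phase gene and at most 1 mitosis gene. Tpx2, a spindle assembly gene, was higher by 1.37 (adjusted p = 0.0104), and by 1.22 without NOD replicate 1 (adjusted p = 0.0223), but none of its 3 other probe sets was called. Reg1, of the islet regeneration family, was at 8.95, 8.77, 10.01 and 9.32 in NOD and at 8.83, 10.78 and 10.84 in C57BL/6, with overlapping strains (−0.89, SE 0.46, adjusted p = 0.35). It was called only without C57BL/6 replicate 2. Of the 7 measured members of the family only Reg2 was called. It lay between 6.57 and 7.35 in NOD, against 7.28 to 8.71 in C57BL/6, with overlapping strains (−1.07, SE 0.30, adjusted p = 0.0622). The call was lost without C57BL/6 replicate 3 or 4 or NOD replicate 2, 3 or 4 (adjusted p of up to 0.183) and with the spread estimated from all 22 arrays (adjusted p = 0.311), and the difference after PBS was −2.48 (adjusted p = 0.0498).

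**Figure D5:**
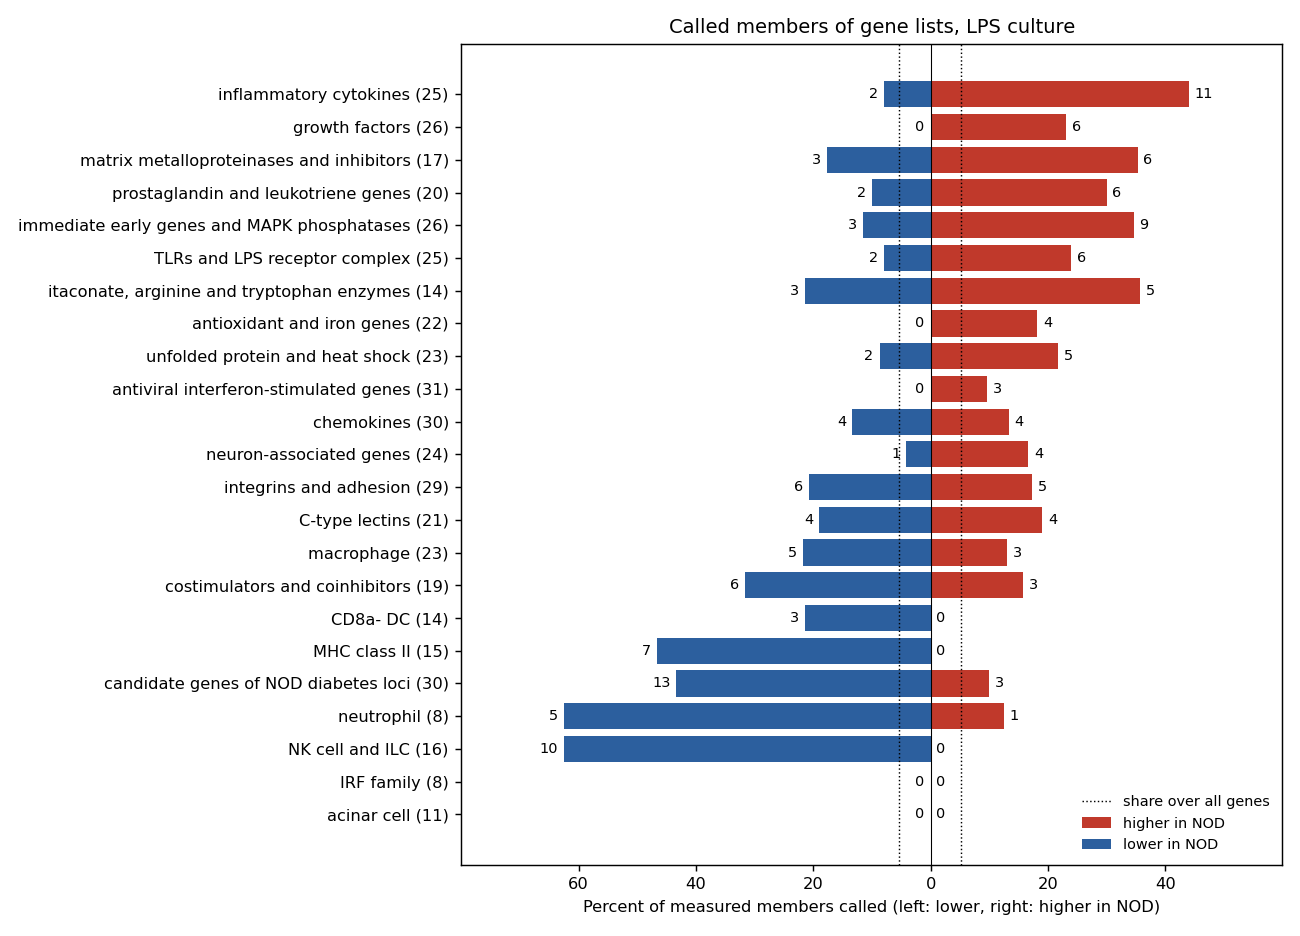
Percent of the measured members of 23 gene lists that were called higher (right) or lower (left) in NOD after LPS culture; numbers at the bars are called members and numbers in brackets measured members. The dotted lines mark the shares over all genes, 5.21% higher and 5.43% lower; inflammatory cytokines extend farthest to the right, and neutrophil and NK cell and ILC markers farthest to the left.

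One gene was called in opposite directions in the 2 cultures. Nrip1, a nuclear receptor corepressor gene named after its values were seen, was at 10.25, 10.07, 10.21 and 9.99 in NOD and at 9.83, 9.57 and 9.60 in C57BL/6 after LPS (0.46, SE 0.12, adjusted p = 0.0548 in limma), and differed by −0.41 (adjusted p = 0.0555) after PBS. The interaction of 0.87 (SE 0.16) did not pass the adjustment (adjusted p = 0.138). The LPS call was lost in 5 of 7 fits that left out an array (C57BL/6 replicates 3 and 4 and NOD replicates 1, 2 and 3; adjusted p of up to 0.18), under the replicate block (0.42, adjusted p = 0.106) and on the mean over its probe sets (0.34, adjusted p = 0.165).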

How the data were processed

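Expression was measured on Affymetrix Mouse Genome 430 2.0 arrays after whole-transcriptome amplification of the RNA. The authors normalised the arrays by RMA with BRB-ArrayTools (version not given in the sources used here), and the deposited table holds log2 values. Columns were matched to samples by their record names. The 64 AFFX rows of the 45101 were removed. Of 45037 tested, 34945 name 1 gene, 932 several and 9160 none here. Strains were compared with limma 3.58.1 in R 4.3.3, unpaired, on the arrays of the groups compared, and p-values were adjusted by Benjamini-Hochberg over all 45037 probe sets, with 0.1 as threshold. The study controlled its false discovery rate by a multivariate permutation test instead. The interaction was fitted over the 15 cultured arrays. The code was tested on simulated data. SE is the moderated standard error. The number of arrays limits the precision, and as arrays hold pools, p-values measure the spread between pools.

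The genes and lists described were chosen with earlier results of these data known. Named genes were the 15 largest rises and falls without overlap between the strains, up to 4 called members of each list, the genes the study named for its LPS arrays, and the called interactions; others are marked in the text. The 60 lists come from general knowledge of pathways and cell types (921 of 1040 genes measured).

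Neither the labels nor the paper say whether equal replicate numbers mark pools handled together. Equal numbers were taken as pairs for the blocked fits because of residual correlations in these same data. Same-numbered arrays correlated at 0.345, 0.114 and 0.195 between the strains after LPS, and differently numbered ones at up to 0.172. Between LPS and PBS arrays of a strain, same-numbered arrays correlated at 0.241 to 0.487 and differently numbered ones at up to 0.242. Between the strains at steady state the values were 0.109, 0.433 and 0.13 for equal numbers and up to 0.494 otherwise. The block leaves NOD replicate 1 without a partner in the LPS comparison.

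Results were recomputed at an adjusted p under 0.05, after dropping the dimmer 50% of probe sets, with the spread taken from all 22 arrays, after centring each array on its median, with limma's trend and robust options, with array weights, from averaged or single probe sets of a gene, with the replicate block and without each array in turn. The list counts with an array left out, and the alternatives for genes named after their values were seen, were chosen after seeing the data. Promoters are RefSeq sequence on GRCm38.p6, searched on both strands.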

Additional observations from a re-analysis of the deposited data

Results flagged for a closer look

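In 207 named genes, an NOD LPS array lay far from the other 3 in 4 cases by Dixon's test, which flags about 1 in 20 groups by chance. Mki67 was 12.66 on NOD replicate 1, against 12.01 to 12.12 on the other NOD arrays, and Dcn was 10.27 on the same array, against 10.09 to 10.12. The calls of Dcn and Birc2 were lost in 6 and 7 of 7 fits that left out an array. Birc2 was 10.59 on NOD replicate 3, against 11.01 to 11.07. Fcgr2b was 12.68 on NOD replicate 2, against 13.08 to 13.15.

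The strain difference after LPS differed from that after PBS, by the interaction in limma, for Mmp3 (2.70, adjusted p = 0.0104), a dimmer probe set of Epha4 (1.65, adjusted p = 0.0104), Gbp2b (1.54, adjusted p = 0.0149), a probe set with no gene named here (1.47, adjusted p = 0.0568), Fcgr2b (1.26, adjusted p = 0.0657) and Map2 (−1.37, adjusted p = 0.0442). Of these, Mmp3, Gbp2b and the Epha4 probe set kept their call whichever of the 15 arrays was left out. The unnamed probe set lost it in 11 of 15 such fits, with an adjusted p of up to 0.249.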

How the results depend on the processing

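No called result changed direction under any alternative. Of 198 calls among 213 results on named genes and probe sets, 144 were kept in every alternative and 50 were lost with at least 1 array left out. For the LPS comparison, 2951 probe sets were called at an adjusted p under 0.05, and between 2837 (without C57BL/6 replicate 3) and 4336 with an array left out. For PBS these fits gave 3137 to 3819 (4447 with all arrays) and at steady state 4390 (without NOD steady state replicate 6) to 8915 (6769 with all arrays). The interaction was called for 6 probe sets without the dimmer 50%, 20 with a spread over all 22 arrays, 18 with the replicate block and 5 to 14 with an array left out. The replicate block gave 6826 probe sets after PBS. It gave no call for 18 named results, of which those given in the text were Birc2 (adjusted p = 0.116), Dcn (adjusted p = 0.108), Nrip1 (adjusted p = 0.106) and the Gbp2b and unnamed probe set interactions (adjusted p = 0.117 and 0.189), and changed no other call given in the text. Fold sizes are limited where a group lay below the lower quartiles of 6.27 to 6.36. The cause of the lost calls was not tested, beyond fewer arrays in the fits that left out one.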
